A study of Saccharomyces cerevisiae with 24 samples.

Results

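A total of 429 yeast genes were listed by the authors under a FLAG-Rph1 peak in cells treated with rapamycin and not in untreated cells. They are called the rapamycin-only genes here. The rapamycin list held 705 genes and the untreated list 466. The other 276 genes of the rapamycin list stood in both lists, and 190 genes stood in the untreated list alone. The genes were chosen by their measured ChIP signal, through presence in the authors' peak lists, so the peak values below are a description without a test.

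All samples came from Saccharomyces cerevisiae BY4741, a laboratory strain of mating type a. Total RNA was sequenced in 4 groups of 2 libraries each: wild type without treatment, wild type treated with rapamycin, an rph1 deletion without treatment and the rph1 deletion treated with rapamycin. Chromatin immunoprecipitation (ChIP) with a FLAG antibody had 2 samples and 2 inputs in each of the untreated and rapamycin conditions, labelled wild type. The labels give neither the dose nor the duration of rapamycin, and do not say whether the replicates came from different cultures. The p-values below therefore cover only the variation among the sequenced libraries, which may be technical.

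Rph1 is a JmjC-domain protein with zinc fingers that removes methyl groups from lysine 36 of histone H3 and is known in yeast as a repressor of stress and autophagy genes. Rapamycin inhibits the kinase complex TORC1, which couples growth to nitrogen supply. When TORC1 is inactive, yeast cells are known to turn down ribosome production and to turn on genes for scavenging poor nitrogen sources, the retrograde response and stress defence.

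The 8 RNA libraries held between 18037199 and 24769193 counted reads. Spearman's rho between the libraries of a group was 0.985 to 0.995 over genes. The labels held for the deleted gene, which is itself one of the rapamycin-only genes (fold enrichment 17.0): RPH1 had 1057 and 1850 reads in untreated wild type, 1695 and 2107 in rapamycin-treated wild type, 30 and 43 in the untreated deletion, and 82 and 45 in the treated deletion. Every deletion library lay far below every wild-type library. Among the markers of mating type, the 6 a-specific genes summed to between 31349 and 60890 reads per library. The 4 alpha-specific genes summed to between 441 and 975. The alpha-factor genes MF(ALPHA)1 and MF(ALPHA)2 had 3 to 12 and 92 to 163 reads, and AFB1 had 302 to 466. STE3 had 39, 58, 95 and 77 reads in the wild-type libraries and 241, 230, 312 and 360 in the deletion libraries, without overlap. The cause of that difference was not tested. Of the nutrient marker genes mutated in BY4741, LEU2 had 0 reads, and MET17 and URA3 had at most 1 read in any library. HIS3 had 1391 to 8201 reads, and the labels do not give its allele.

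Listed neighbours often carried an identical fold enrichment, the authors' ratio of ChIP signal over background at the peak, and were then counted as 1 locus. The 429 genes fell into 395 loci. At 351 of these the gene stood alone, and 34 loci held a pair of rapamycin-only genes. In 20 of the 34 pairs the gene spans overlapped, 27 pairs had an entry that is not a protein-coding gene of the gene table, and 7 of them had a tRNA gene. A further 10 rapamycin-only genes shared their value with a neighbour that also stood in the untreated list, so that their peak is not clearly absent from untreated cells. Those included AHP1, whose neighbour CCW12 was listed at 112 in untreated cells, and PCL1, whose neighbour SNR40 was listed at 54.6. In gene order, 55 rapamycin-only genes lay next to a gene of the untreated list. By type, 376 genes were protein-coding, 21 were tRNA genes, and 32 entries were not in the gene table, among them SNR14, of the spliceosome, and the small nucleolar RNA gene SNR9.

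Fold enrichment of the 395 loci ran from 5.01 to 1300, with a median of 22.5 and quartiles of 15.5 and 40.9. It passed 10 at 367 loci, 50 at 84, 100 at 37 and 200 at 15. The 229 loci of genes in both lists had a median of 31.0 under rapamycin and a maximum of 691, so that the highest value of the whole rapamycin list belonged to a gene without a listed peak in untreated cells. That gene was CIT2, which encodes the peroxisomal citrate synthase (sacCer3 chromosome III, 120946 to 122328), at 1300. SPO24, a short open reading frame (chromosome XVI, 645950 to 646153), followed at 791, and CSS1, a secreted protein gene (chromosome IX), at 782. The thioredoxin peroxidase gene AHP1 (chromosome XII) was listed at 619. DLD3, a D-2-hydroxyglutarate dehydrogenase gene (chromosome V), was listed at 576. The next 5 were UGA1 (444), PYC1 (351), AGP1 (341), DPI8 (310) and DIP5 (302). At the low end stood IRC23 (7.81), YIL165C (6.92), the proteasome ATPase gene RPT3 (6.79), YLL019W-A (6.15), which had 0 reads in every library, and VTC1 (5.01), a subunit gene of the vacuolar polyphosphate polymerase. Just outside the rule lay genes of both lists with the lowest untreated values: the chaperone gene HSC82 was listed at 6.21 without and 145 with rapamycin, SND3 at 6.22 and 29.9, and the sterol gene ERG11 at 8.18 and 35.1.

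**Figure D1:**
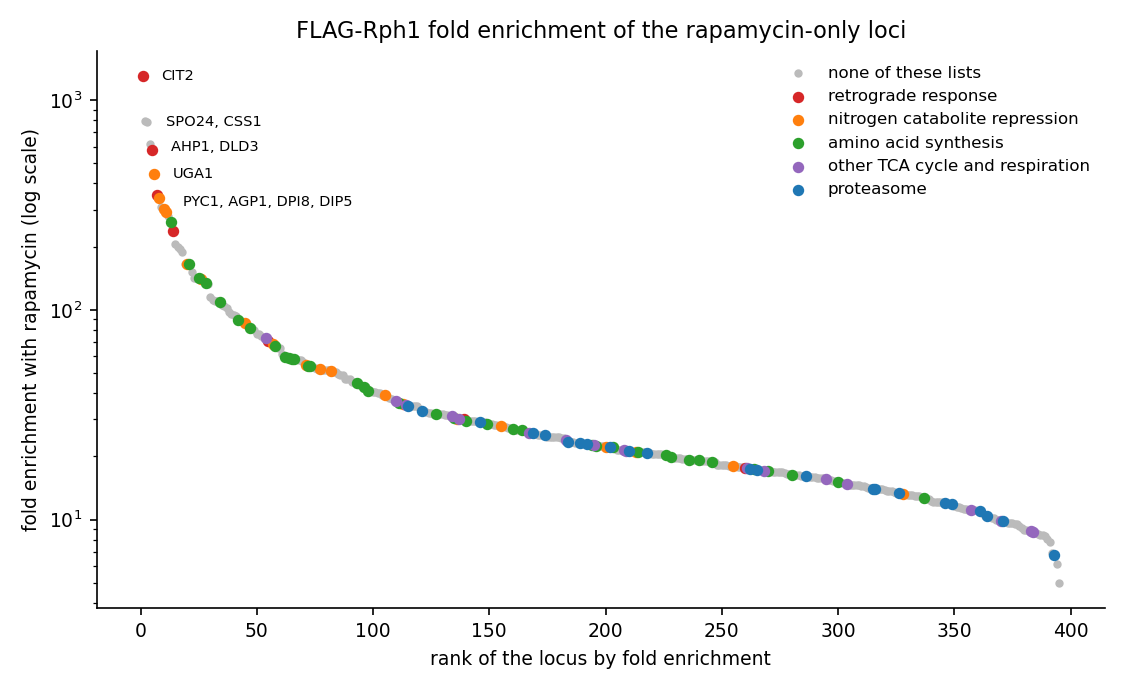
Fold enrichment of the FLAG-Rph1 peak with rapamycin (log axis) at the 395 loci of rapamycin-only genes, ranked from high to low, 1 point per locus, coloured by the gene list of a gene at the locus. CIT2 stands apart at 1300, and proteasome genes lie between 6.79 and 35.0.

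The rapamycin-only genes covered metabolic pathways unevenly. They made up 5.88% of the entries in the count table, and 39 of 97 genes of amino acid synthesis and its control (40.2%), 23 of 57 genes of the TCA cycle and respiration (40.4%) and 19 of 56 genes under nitrogen catabolite repression, the genes kept off when good nitrogen sources are present (33.9%). A list of 33 proteasome genes, added after the rapamycin-only genes were seen, had 23 among them (69.7%), with fold enrichments of 6.79 to 35.0 and a median of 17.4. Lists of 7 retrograde response genes and of 4 genes for use of gamma-aminobutyric acid (GABA), added in the same way, had all their genes among them. The 7 retrograde genes CIT1, CIT2, ACO1, IDH1, IDH2, DLD3 and PYC1, which supply and run the first steps of the TCA cycle or answer to its failure, spanned 17.7 to 1300. Of 139 cytosolic ribosomal protein genes, 0 were rapamycin-only, since 70 stood in both lists and 66 in the untreated list alone. Ribosome biogenesis had 1 of 154 genes (BUD21), mitochondrial ribosomal proteins 1 of 67 (MRP51) and autophagy 2 of 43 (ATG41 and the kinase gene NPR1). None of 6 genes known as Rph1 targets in other work (0 of 6) stood in either list. The amino acid list also holds genes of uptake and breakdown, among them MUP1, ARO9 and ARO10. The lists overlap, and these shares describe the choice of genes without a test.

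The rule that chose the genes used the peak lists and no RNA value, but it was set with earlier results of these data known. Of the 429 genes, 414 were in the count table and 385 passed the filter on low counts. The 15 genes outside the count table were listed at 12.1 to 81.5, with spans of 3591 to 5269 bp. Of the 29 genes that failed the filter, 9 had 0 reads in every library, and the highest count of any in a library was 15. Among the 385 tested, 3 had under 10 reads in both libraries of untreated wild type and so passed through other groups. In these bulk samples, more cells expressing a gene and more RNA per cell cannot be told apart. All tests below are edgeR quasi-likelihood tests on the 8 libraries, with p-values adjusted over 6169 genes by Benjamini and Hochberg and called under 0.05.

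With rapamycin in wild type, most rapamycin-only genes were higher. Of the 385 tested, 254 (66.0%) were called higher, beside 34.8% of all genes tested, and 49 (12.7%) were called lower, beside 33.9% of all genes. Their median log2 fold change was 0.78, against 0.02 over all genes. Changes of more than 2-fold were called for 166 genes upward (43.1%) and 14 downward (3.64%), beside 14.9% and 14.6% of all genes. As a share of all counted reads, the rapamycin-only genes took 9.10% and 8.47% in untreated wild type and 21.5% and 22.6% after rapamycin, and 9.44% and 9.22% in the untreated deletion and 17.6% and 18.1% after rapamycin. Both rapamycin groups thus lay above both untreated groups, and the wild type lay above the deletion under rapamycin. Per length, the median level of the 360 protein-coding genes tested was 154 and 155 CPM per kb, the counts scaled to library size and divided by gene length, in untreated wild type and 319 and 324 with rapamycin, while the median over all 5753 protein-coding genes tested was 50.3 to 52.9 across the 8 libraries. For comparison, genes in both lists had 37 of 258 higher and 184 lower, and genes of the untreated list alone had 3 of 167 higher and 156 lower. The difference between these sets was not tested.

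**Figure D2:**
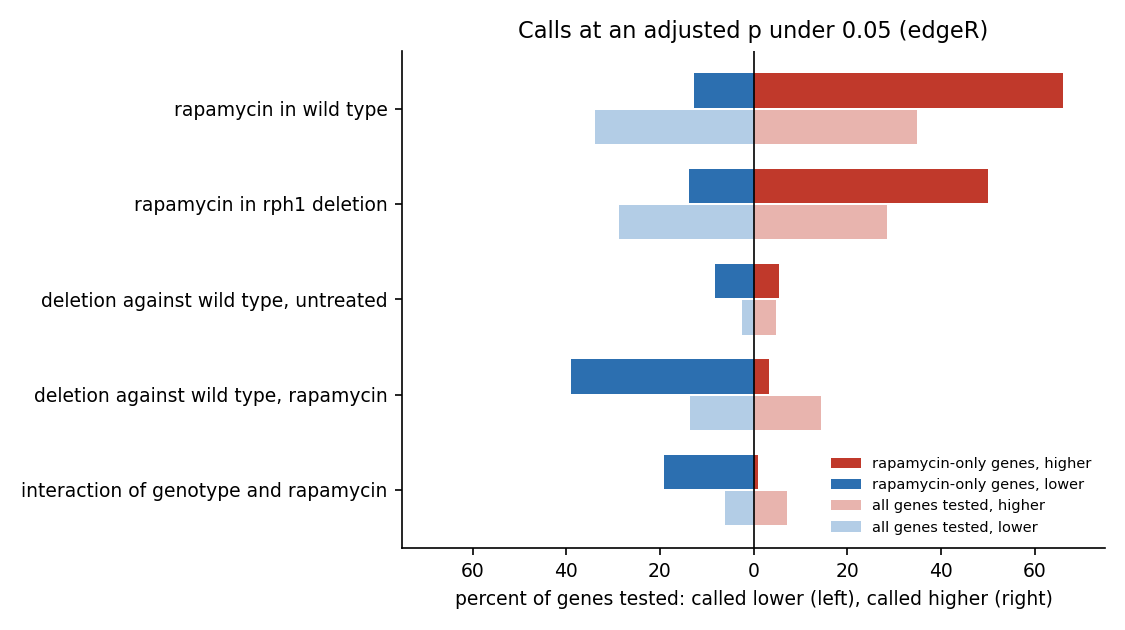
Percent of genes called higher (right) or lower (left) at an adjusted p under 0.05 (edgeR) in 5 comparisons, for the 385 rapamycin-only genes tested (dark bars) and all 6169 genes tested (light bars). In wild type with rapamycin, 66.0% of the rapamycin-only genes were higher beside 34.8% of all genes, and in the deletion against wild type under rapamycin 39.0% were lower beside 13.5%.

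Higher peak values went with larger increases of RNA in wild type. Among the 50 loci with the highest fold enrichment, 48 of 50 genes tested were higher and 0 were lower, with a median log2 fold change of 2.54. By edgeR without adjustment these counts were also 48 and 0. Among the 50 lowest loci, 27 of 47 genes were higher and 9 lower, with a median of 0.42. When the loci tested were split into 3 bins by fold enrichment, 104 of 123 were higher and 6 lower in the top bin, 70 and 17 of 122 in the middle bin, and 66 and 25 of 122 in the bottom bin. Over 353 protein-coding loci, Spearman's rho of fold enrichment was 0.46 with the log2 fold change in wild type. It was 0.31 with the level per kb in wild type with rapamycin and -0.10 with the level in untreated wild type. The relation went the same way in the rph1 deletion, with a rho of 0.43 for the change with rapamycin there. For the deletion against wild type, rho was -0.22 under rapamycin and 0.03 without it. With the difference between the genotypes in their change with rapamycin, rho was -0.20. At the 50 highest loci, 45 of 50 genes were higher and 1 lower in the deletion, with a median of 2.05. At the 50 lowest loci, 13 of 47 were higher and 11 lower in the deletion, with a median of 0.12. These loci share the same ChIP and RNA libraries and are not independent replicates, so that the values are a description. CSS1, with a peak of 782, had no called change in wild type (log2 fold change 0.24, SE 0.15, adjusted p = 0.176, edgeR). Its sequence resembles that of HPF1, and how shared reads were counted is not given in the sources used here.

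**Figure D3:**
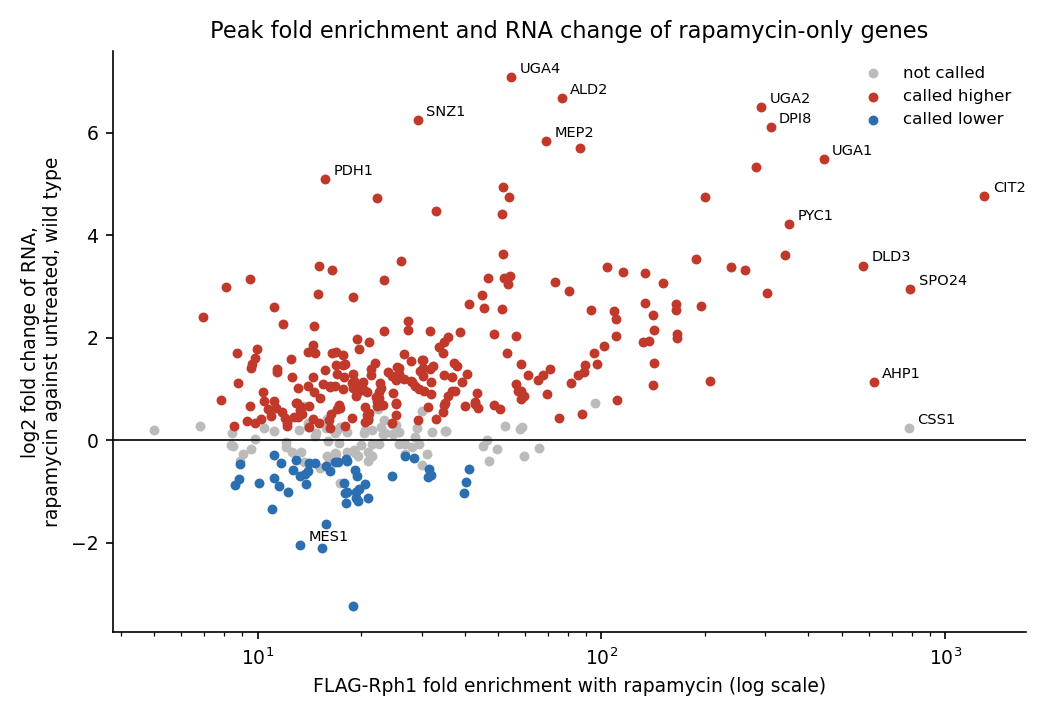
Log2 fold change of RNA with rapamycin in wild type against the FLAG-Rph1 fold enrichment with rapamycin (log axis), 1 point for each of the 385 rapamycin-only genes tested, coloured by the call (edgeR, adjusted p under 0.05). Above a fold enrichment of 50, 2 genes lie below 0 and none was called lower.

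The 7 retrograde response genes were all called higher with rapamycin in wild type, with log2 fold changes of 1.40 to 4.77. CIT2 had 2304 and 1452 reads in untreated wild type, 62889 and 63872 with rapamycin, 2946 and 1700 in the untreated deletion and 56511 and 73113 in the deletion with rapamycin. The rapamycin libraries lay far above the untreated ones in both genotypes, and the genotypes overlapped. CIT2 rose 4.77 on the log2 scale in wild type (SE 0.40, adjusted p = 2.11e-05, edgeR) and 4.54 in the deletion (SE 0.40). PYC1, a pyruvate carboxylase gene that refills the TCA cycle, had 1891 and 1923 reads in untreated wild type, 36244 and 48153 with rapamycin, 3240 and 3069 in the untreated deletion and 31996 and 37616 in the deletion with rapamycin. It rose 4.22 in wild type (SE 0.23) and 3.18 in the deletion (SE 0.22). DLD3 rose 3.41 and 2.62, CIT1, the mitochondrial citrate synthase gene, 3.39 and 3.04, and IDH1, a subunit gene of the NAD-dependent isocitrate dehydrogenase, 1.66 and 1.51.

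Genes under nitrogen catabolite repression were higher almost throughout. Of the 19 rapamycin-only genes of the list, 18 were higher with rapamycin in wild type and 0 lower, with a median log2 fold change of 2.57. In the deletion 17 were higher and 0 lower. Over all genes tested, 34.8% were higher in wild type and 28.6% in the deletion. Here and for the groups below, changes of the other genes of each list are not given. The counts thus cannot be called particular to the rapamycin-only genes of a list. GAP1, the general amino acid permease gene, had 194 and 325 reads in untreated wild type, 13705 and 17152 with rapamycin, 219 and 239 in the untreated deletion and 14457 and 19968 in the deletion with rapamycin. The genotypes overlapped in both conditions, and the increase was 5.70 in wild type (SE 0.23) and 5.94 in the deletion (SE 0.23). MEP2, an ammonium permease gene, rose 5.84 and 6.16. AGP1 and DIP5, amino acid permease genes among the 10 highest peaks, rose 3.61 and 2.88 in wild type and 4.31 and 2.60 in the deletion. DAL5, the allantoate permease gene, rose 4.73 and 4.36, and GDH2, a glutamate dehydrogenase gene, 3.17 and 2.95.

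The 4 GABA genes, which take up and degrade GABA as a nitrogen source, rose in both genotypes and less in the deletion for the enzymes and the permease. UGA4, the GABA permease gene, had 96 and 155 reads in untreated wild type, 19010 and 20312 with rapamycin, 168 and 140 in the untreated deletion and 8220 and 9003 in the deletion with rapamycin. Its increase of 7.08 (SE 0.14, adjusted p = 1.89e-07, edgeR) was the largest called in wild type among the rapamycin-only genes, and the increase in the deletion was 5.53 (SE 0.13). UGA1, the GABA transaminase gene, had 1548 and 1539 reads in untreated wild type, 79392 and 85661 with rapamycin, 2806 and 2335 in the untreated deletion and 37556 and 38687 in the deletion with rapamycin. It rose 5.49 and 3.62. UGA2, the succinate semialdehyde dehydrogenase gene, had 694 and 779 reads in untreated wild type, 77103 and 80931 with rapamycin, 2693 and 1762 in the untreated deletion and 41472 and 42114 in the deletion with rapamycin. UGA2 was higher in the deletion than in wild type without rapamycin and lower with it, with no overlap in either condition. UGA3, the activator gene of the pathway, rose 1.55 and 1.39.

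The amino acid list had 39 rapamycin-only genes, of which 32 were higher and 4 lower with rapamycin in wild type, with a median of 1.13. The genes called higher included steps of arginine and lysine synthesis. ARG1, argininosuccinate synthetase, had 1197 and 1610 reads in untreated wild type, 42097 and 45422 with rapamycin, 1961 and 1282 in the untreated deletion and 20324 and 22426 in the deletion with rapamycin. The deletion with rapamycin lay between the untreated libraries and the wild type with rapamycin. ARG1 rose 4.74 in wild type and 3.46 in the deletion. ARG4, argininosuccinate lyase, rose 3.33 and 2.70, BAT2, a branched-chain aminotransferase, 2.52 and 2.25, and LYS1, saccharopine dehydrogenase, 2.84 and 1.50. The 4 genes called lower were ILV3, dihydroxyacid dehydratase, MUP1, the methionine permease, THR4, threonine synthase, and ASN2, asparagine synthetase, at -1.12, -1.13, -0.31 and -0.58. MET4, an activator of sulphur amino acid genes, was higher by 0.62 (adjusted p = 0.0214, edgeR), but missed the threshold without untreated wild-type replicate 1 (0.101) or without rapamycin wild-type replicate 2 (0.0749).

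Of 23 genes of the TCA cycle and respiration, 22 were higher and 0 lower with rapamycin in wild type, and 22 and 0 in the deletion, with medians of 1.41 and 1.09. They included subunit genes of the ATP synthase (ATP20, 1.71 in wild type), of cytochrome oxidase (COX9, 1.41) and of the cytochrome bc1 complex (QCR9, 1.42). Outside this list, HAP4, the activating subunit gene of the factor that drives respiratory genes, had 3551 and 4945 reads in untreated wild type, 6544 and 5434 with rapamycin, 3243 and 3155 in the untreated deletion and 7066 and 10820 in the deletion with rapamycin. The change was 0.27 in wild type (SE 0.15, adjusted p = 0.148, edgeR) and 1.19 in the deletion (SE 0.16, adjusted p = 0.000443). IDP1, the mitochondrial NADP-dependent isocitrate dehydrogenase gene, rose 3.10 in wild type and 1.63 in the deletion.

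Proteasome genes changed little, and for 7 of 23 the change was called lower in the deletion than in wild type by the interaction test below. Of the 23 rapamycin-only genes, 15 were higher and 0 lower in wild type, with a median of 0.41 and a maximum of 0.77, while in the deletion 0 were higher and 1 was lower, with a median of -0.05. Without untreated wild-type replicate 2 the count of 15 was 12, and without untreated wild-type replicate 1 it was 19. PRE6, a subunit gene of the 20S core, had 3870 and 5295 reads in untreated wild type, 7997 and 7662 with rapamycin, 4765 and 4605 in the untreated deletion and 3977 and 4721 in the deletion with rapamycin. The wild type with rapamycin stood above the rest. PRE6 rose 0.55 in wild type (SE 0.09, adjusted p = 0.000957, edgeR) and fell by 0.39 in the deletion (SE 0.09, adjusted p = 0.00793). The call in the deletion was lost without untreated deletion replicate 2 (adjusted p = 0.0733) or without rapamycin deletion replicate 1 (0.0798). PRE1 was higher by 0.68 and PRE9 by 0.66 in wild type, RPN12, of the regulatory particle, by 0.64, and all 3 had values between -0.11 and 0.07 in the deletion.

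Among other groups, 10 of 12 stress genes were higher in wild type and 0 lower, and all 9 genes of the cell wall list were higher. TIP1, a cell wall mannoprotein gene outside that list, was called lower in wild type, by 0.68. ALD2, a cytosolic aldehyde dehydrogenase gene, had 503 and 476 reads in untreated wild type, 61598 and 58278 with rapamycin, 823 and 635 in the untreated deletion and 11890 and 11888 in the deletion with rapamycin. The deletion with rapamycin stood above all untreated libraries and well below the wild type with rapamycin. ALD2 rose 6.67 in wild type and 3.76 in the deletion. It lies beside a close copy, ALD3, and how reads shared by both were counted is not given in the sources used here. Cell wall genes called higher were GSC2, a glucan synthase gene (3.13), PST1 (1.93) and BGL2, a glucanase gene (1.91). The neutral trehalase gene NTH1 rose 2.08 and the stress factor gene MSN4 1.81.

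Outside the lists, SNZ1, a gene of vitamin B6 synthesis, had 246 and 408 reads in untreated wild type, 25603 and 31298 with rapamycin, 465 and 382 in the untreated deletion and 5957 and 7794 in the deletion with rapamycin. It rose 6.25 in wild type and 3.74 in the deletion. DPI8, whose peak was the ninth highest, rose 6.11 and 5.36. PDH1, a gene of propionate breakdown with a peak of 15.7, rose 5.10 and 4.63. SPO24, with the second highest peak, rose 2.95 and 2.82.

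The 49 genes lower in wild type with rapamycin included all 4 tRNA synthetase genes among the rapamycin-only genes. MES1, methionyl-tRNA synthetase, had 10078 and 16329 reads in untreated wild type, 3463 and 3890 with rapamycin, 11198 and 10390 in the untreated deletion and 4751 and 5225 in the deletion with rapamycin. Rapamycin libraries lay below untreated ones in both genotypes. MES1 fell by 2.04 in wild type (SE 0.13, adjusted p = 4.41e-06, edgeR) and by 1.39 in the deletion. THS1, ILS1 and ALA1, for threonine, isoleucine and alanine, fell by 1.19, 0.80 and 0.60 in wild type. In the deletion ALA1 was lower by 0.36, a call lost without any 1 of the 4 deletion libraries (adjusted p = 0.0696 to 0.107). BUD21, of the small subunit processome, fell by 1.33, ARB1, an ATPase of ribosome biogenesis, by 1.22, and BDF1, a bromodomain protein gene, by 1.02. FAR1, the mating arrest gene, was lower by 1.03, but its call was lost without untreated wild-type replicate 2 (adjusted p = 0.161, edgeR) or without rapamycin wild-type replicate 1 (0.139). Of the 21 tRNA genes, 9 passed the filter, with 5 called higher and 3 lower on small counts: tF(GAA)P1 had 19 and 23 reads in untreated wild type and 3 and 2 with rapamycin, and SUF2 had 6 and 6, then 46 and 26. The 5 higher were 1 without untreated wild-type replicate 2 and 2 without rapamycin wild-type replicate 1. tRNA genes have near-identical copies, so that their counts are uncertain.

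Some groups held few genes or none called. The FACT subunit genes SPT16 and POB3 had values of -0.23 and 0.20 in wild type, neither past the threshold. Of 7 lipid and sterol genes, 3 were higher (among them ERG1, 0.61, and ERG25, 0.45) and 2 lower (the fatty acid synthase gene FAS2, -0.69, and ERG6, -0.70). Of 6 nucleotide synthesis genes, 1 was higher and 3 lower, among them the pyrimidine gene URA5 at -0.84. The 1 higher was 0 without untreated wild-type replicate 1 or rapamycin wild-type replicate 2, and 2 without untreated wild-type replicate 2. Of 7 stress and metabolic transcription factor genes, 4 were higher and 0 lower, with the glucose repressor gene MIG1 at 1.23, RTG3, a factor of the retrograde response, at 0.78 and RLM1 at 0.72. Of the 2 a-specific genes, MFA2 was lower by 0.55 and BAR1 had a value of 0.17 (adjusted p = 0.438, edgeR), though BAR1 was called higher without untreated wild-type replicate 2. At the lowest peaks, VTC1 had a value of 0.21 and RPT3 of 0.28, neither called, whereas YIL165C was higher by 2.40.

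**Figure D4:**
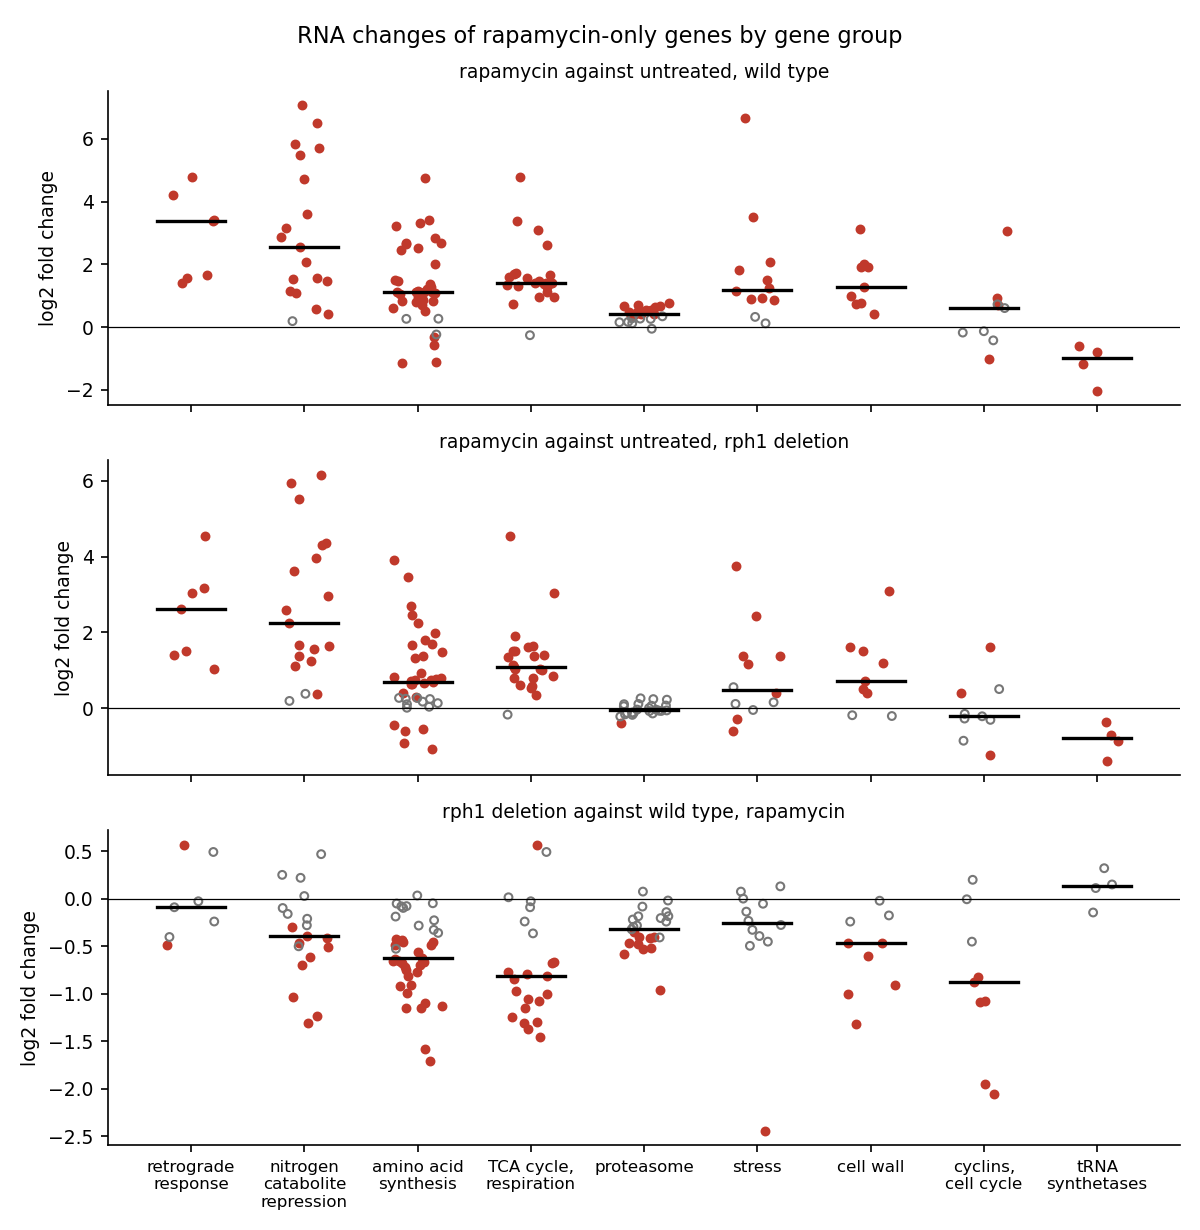
Log2 fold changes of rapamycin-only genes by gene group in 3 comparisons, 1 point per gene, filled where the adjusted p was under 0.05 (edgeR) and open otherwise, with the group median as a bar. Nitrogen catabolite repression and retrograde response genes were higher with rapamycin in both genotypes, proteasome genes in wild type, and the 4 tRNA synthetase genes were lower in both. The panels on rapamycin in wild type and on the deletion under rapamycin share the wild-type rapamycin libraries.

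In the rph1 deletion, rapamycin raised fewer rapamycin-only genes. Of the 385 tested, 193 (50.1%) were called higher, beside 28.6% of all genes, and 53 (13.8%) lower, beside 28.7%. The median log2 fold change was 0.40, against -0.01 over all genes. The fold changes of the 2 genotypes use different libraries, but the tests share 1 estimate of the spread over all 8 libraries, so the calls are not independent. Of the 254 genes higher in wild type, 187 were also higher in the deletion, 63 were not called and 4 were lower. Those 4 were AHP1, BDF2, DDR48 and PRE6. The call of DDR48 in the deletion was lost without any 1 of 6 libraries, the exceptions being the untreated wild type (adjusted p = 0.0589 to 0.179). Of the 49 genes lower in wild type, 37 were also lower in the deletion, 11 were not called and 1, TIP1, was higher. The same overlaps were not counted over all genes, so these counts cannot be called particular to the rapamycin-only genes. Changes of more than 2-fold were called for 125 genes upward and 9 downward, beside 9.77% and 8.3% of all genes. Among genes called lower in the deletion, leaving out tRNA genes of few reads, was CHA1, the serine and threonine deaminase gene, which had 12551 and 9834 reads without and 3187 and 3583 with rapamycin and fell 3.99-fold. KAR2, the chaperone gene of the endoplasmic reticulum, YOX1, a cell cycle repressor gene, and VRG4, a GDP-mannose transporter gene, were lower too, at -1.52, -1.24 and -1.23. The count of 53 lower calls was 33 without untreated deletion replicate 2, 32 without rapamycin deletion replicate 1 and 33 without rapamycin deletion replicate 2.

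Without rapamycin, few rapamycin-only genes differed between the deletion and wild type. Of the 385 tested, 21 (5.45%) were higher in the deletion, beside 4.88% of all genes, and 32 (8.31%) were lower, beside 2.53%. The median was -0.07, against -0.05 over all genes, and RPH1 is 1 of the 32. More than 2-fold, 9 were higher and 6 lower, beside 0.875% and 0.34% of all genes. GPP2, a glycerol phosphatase gene of the osmotic stress response, had 830 and 736 reads in wild type and 3418 and 3023 in the deletion. AHP1 had 14861 and 17891 in wild type and 65546 and 59992 in the deletion. Neither gene overlapped between genotypes, and they were higher by 1.93 (SE 0.19, adjusted p = 0.00293, edgeR) and 1.86 (SE 0.16, adjusted p = 0.00200). UGA2, the vacuolar proteinase gene PEP4 and DDR48 followed at 1.50, 1.31 and 1.21. ZRT1, the zinc transporter gene, had 1218 and 3031 reads in wild type and 580 and 662 in the deletion, and was lower by 1.76 (SE 0.26, adjusted p = 0.00963). ARO9 and ARO10, of aromatic amino acid breakdown, were lower by 1.40 and 1.41, and RPM2, a subunit gene of mitochondrial RNase P, by 1.27.

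Respiration was the group with most of these 32. Of the 23 genes of the TCA cycle and respiration, 14 were lower in the untreated deletion, all of them subunit genes of the ATP synthase, cytochrome oxidase or the cytochrome bc1 complex, and 2, IDH1 and IDH2, were higher. ATP20 had 1137 and 1364 reads in wild type and 757 and 620 in the deletion, a decrease by 0.94 (SE 0.11, adjusted p = 0.00580, edgeR). COX9 and QCR9 were each lower by 0.64. The count of 14 was 2 and 4 without untreated deletion replicates 1 and 2, and 9 without either rapamycin wild-type replicate, either rapamycin deletion replicate or untreated wild-type replicate 1. The count of 2 higher was 0 without any 1 of 7 libraries, the exception being untreated wild-type replicate 1. The count of 32 lower genes was 4 without untreated deletion replicate 1, 11 without untreated deletion replicate 2, and 19 without rapamycin deletion replicate 1 or replicate 2. The count of 21 higher genes was 5 and 9 without untreated deletion replicates 1 and 2, and 11 without untreated wild-type replicate 2. In a fit of these 4 libraries alone, 2 were called higher and 2 lower. ZRT1 (adjusted p = 0.0741), ARO9 (0.0518) and ARO10 (0.0787) missed the threshold without untreated deletion replicate 1, and ARO10 also without replicate 2 (0.0537). COX9 (0.0940 and 0.0768) and QCR9 (0.101 and 0.0544) missed it without either of those libraries. IDH1 missed it without any 1 of 7 libraries, the exception being untreated wild-type replicate 1, with adjusted p-values of 0.0667 to 0.254.

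Under rapamycin, rapamycin-only genes that differed were mostly lower in the deletion. Of the 385 tested, 150 (39.0%) were lower, beside 13.5% of all genes, and 13 (3.38%) were higher, beside 14.4%. The median was -0.33, against 0.00 over all genes. Changes of more than 2-fold were called for 36 genes downward and 3 upward, beside 2.12% and 1.67% of all genes. RPH1 is 1 of the 150. This comparison shares the wild-type rapamycin libraries with that of rapamycin in wild type, so that a high value in those libraries lowers the difference between deletion and wild type and raises the change with rapamycin in wild type. The count of 150 was 99 without rapamycin wild-type replicate 2, 75 without rapamycin deletion replicate 1 and 91 without rapamycin deletion replicate 2. The 13 were 7 and 4 without rapamycin wild-type replicates 1 and 2, 5 and 3 without rapamycin deletion replicates 1 and 2, and 20 without either untreated wild-type replicate. Calls over all genes in this comparison were also fewer without either rapamycin wild-type replicate or either rapamycin deletion replicate. Among genes of both lists, 81 of 258 were higher and 29 lower.

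Genes of the amino acid list made up 27 of the 150, with 0 of 39 higher and a median of -0.62. They include ARO9 and ARO10, which belong to aromatic amino acid breakdown. The count of 27 was 17 without rapamycin wild-type replicate 2, and also without rapamycin deletion replicate 1 or 2. ARO9, the aromatic aminotransferase II gene, had 3097 and 3467 reads in rapamycin-treated wild type and 1062 and 1123 in the deletion, lower by 1.70 (SE 0.17, adjusted p = 0.000983, edgeR). ARO10, phenylpyruvate decarboxylase, had 10144 and 12148 reads in wild type and 3882 and 4227 in the deletion, lower by 1.58 (SE 0.21). Neither gene overlapped between genotypes. ARG1, LYS1 and ARG4 were lower by 1.15, 1.15 and 1.09. ARG3, ornithine carbamoyltransferase, was lower by 0.81 and missed the threshold without rapamycin wild-type replicate 2 (adjusted p = 0.128), or without rapamycin deletion replicate 1 (0.142) or 2 (0.0731).

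Respiratory and nitrogen genes followed. Of 23 genes of the TCA cycle and respiration, 16 were lower and 1, IDH1, higher. ATP20 had 5368 and 4312 reads in rapamycin-treated wild type and 1989 and 2232 in the deletion, lower by 1.31 (SE 0.11, adjusted p = 0.000613, edgeR). IDP1 was lower by 1.29 and QCR9 by 0.67. IDH1 was higher by 0.57 and missed the threshold without rapamycin wild-type replicate 1 (adjusted p = 0.153) or 2 (0.0964), or without rapamycin deletion replicate 1 (0.126) or 2 (0.128). Of 19 genes under nitrogen catabolite repression, 10 were lower and 0 higher, led by UGA4, UGA1 and UGA2 at -1.31, -1.23 and -1.03. The count of 10 was 4 without rapamycin wild-type replicate 2, and also without rapamycin deletion replicate 1 or 2. GAP1 and MEP2 had values of 0.03 (SE 0.18) and 0.22 (SE 0.19), neither called. Proteasome genes had 10 of 23 lower and 0 higher, led by PRE6 at -0.96 (SE 0.09, adjusted p = 0.000887). That count of 10 was 1 and 3 without rapamycin deletion replicates 1 and 2, and 3 and 4 without rapamycin wild-type replicates 1 and 2.

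ALD2, with the counts above, was lower in the deletion by 2.44 (SE 0.18, adjusted p = 0.000584, edgeR) and SNZ1 by 2.17 (SE 0.16). JEN1, the lactate and pyruvate permease gene, had 9080 and 8166 reads in rapamycin-treated wild type and 1878 and 2125 in the deletion, lower by 2.22 (SE 0.25). Cyclin genes of the G1 phase were lower too. CLN1 had 4630 and 5275 reads in rapamycin-treated wild type and 1144 and 1653 in the deletion, lower by 1.95 (SE 0.19). PCL1 had 1134 and 2002 in wild type and 327 and 501 in the deletion, lower by 2.06 (SE 0.38), with an adjusted p of 0.0602 without rapamycin deletion replicate 1, and its peak value is the one shared with SNR40 of the untreated list. CLN2 was lower by 0.87 and PCL5, a cyclin gene that acts on the amino acid regulator Gcn4, by 1.09. In all, 6 of 9 cyclin and cell cycle genes were lower, and 3 without rapamycin deletion replicate 1. ADH5, an alcohol dehydrogenase gene, was lower by 1.56.

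The 13 genes higher in the deletion under rapamycin were CSS1, ISU1, YKR075C, TIP1, SUF2, IDH1, MIG2, YPR123C, SDS23, PPQ1, GPA1, MIX17 and BUD21. CSS1 had 6630 and 8228 reads in rapamycin-treated wild type and 16810 and 15679 in the deletion, with no overlap. It was higher by 1.01 (SE 0.15, adjusted p = 0.00289, edgeR) and rose with rapamycin in the deletion by 1.01 as well. SDS23 was higher by 0.66 (SE 0.12, adjusted p = 0.00720). Both calls held without any single library. SUF2, a tRNA gene, lost its call without rapamycin wild-type replicate 2 (0.129) or rapamycin deletion replicate 1 (0.0842) or 2 (0.115). YKR075C (0.99), MIG2 (1.06), YPR123C (0.86), BUD21 (0.65) and TIP1 (0.63) were each lost without rapamycin wild-type replicate 2, at adjusted p-values of 0.0527, 0.0940, 0.178, 0.139 and 0.179, and without rapamycin deletion replicate 2, at 0.0614, 0.188, 0.124, 0.135 and 0.100. MIG2, YPR123C, BUD21 and TIP1 were also lost without rapamycin deletion replicate 1 (0.0743, 0.126, 0.0708 and 0.165), and YKR075C, MIG2 and BUD21 without rapamycin wild-type replicate 1 (0.0892, 0.187 and 0.0696).

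The difference between the genotypes in their change with rapamycin, tested as an interaction, was called lower in the deletion for 74 of the 385 genes (19.2%), beside 6.08% of all genes, and higher for 4 (1.04%), beside 7.04%. The median was -0.26, against 0.01 over all genes. A value below 0 means a smaller increase or a larger decrease with rapamycin in the deletion. Of the 74, 13 were genes of the amino acid list, 7 of the proteasome, 6 of stress defence and 4 under nitrogen catabolite repression. The count of 74 fell to 16 without rapamycin deletion replicate 1, 31 without rapamycin deletion replicate 2, 35 and 34 without untreated deletion replicates 1 and 2, 45 without untreated wild-type replicate 2 and 37 without rapamycin wild-type replicate 2. The 4 higher were 1 without any 1 of 6 libraries, 3 without rapamycin wild-type replicate 2 and 7 without untreated wild-type replicate 1. The 13 amino acid genes were fewer without any single library, and fewest without rapamycin deletion replicate 1. Interaction calls over all genes were also fewer without any 1 of the 6 libraries given for the count of 74. The 7 proteasome genes were 0 to 2 without any 1 of 7 libraries and 14 without untreated wild-type replicate 1. More than 2-fold, 34 were lower and 1 higher, beside 1.95% and 2.17% of all genes.

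The most negative interactions fell into those with a lower level under rapamycin and those with a higher level before it. ALD2 (-2.91, SE 0.26, adjusted p = 0.00554, edgeR) and SNZ1 (-2.50, SE 0.23) had no called difference without rapamycin and were lower in the deletion with it. GPP2 (-2.32, SE 0.26) and AHP1 (-1.73, SE 0.22) were higher in the untreated deletion and had no called difference with rapamycin. GPP2 had 10495 and 10824 reads in rapamycin-treated wild type and 8323 and 9297 in the deletion. AHP1 had 48348 and 36710 reads in rapamycin-treated wild type and 51101 and 48954 in the deletion, so that AHP1, whose peak value is the one shared with CCW12 of the untreated list, rose by 1.14 in wild type and fell by 0.60 in the deletion. That decrease missed the threshold without untreated deletion replicate 2 (adjusted p = 0.0588) or rapamycin deletion replicate 2 (0.0935). UGA2 (-2.53, SE 0.25) differed in both conditions, and UGA1 (-1.86, SE 0.24) under rapamycin. IDP1, PCL5 and LYS1, at -1.47, -1.44 and -1.34, kept the call without any single library, as did ALD2, SNZ1, GPP2, AHP1, UGA1 and UGA2.

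**Figure D5:**
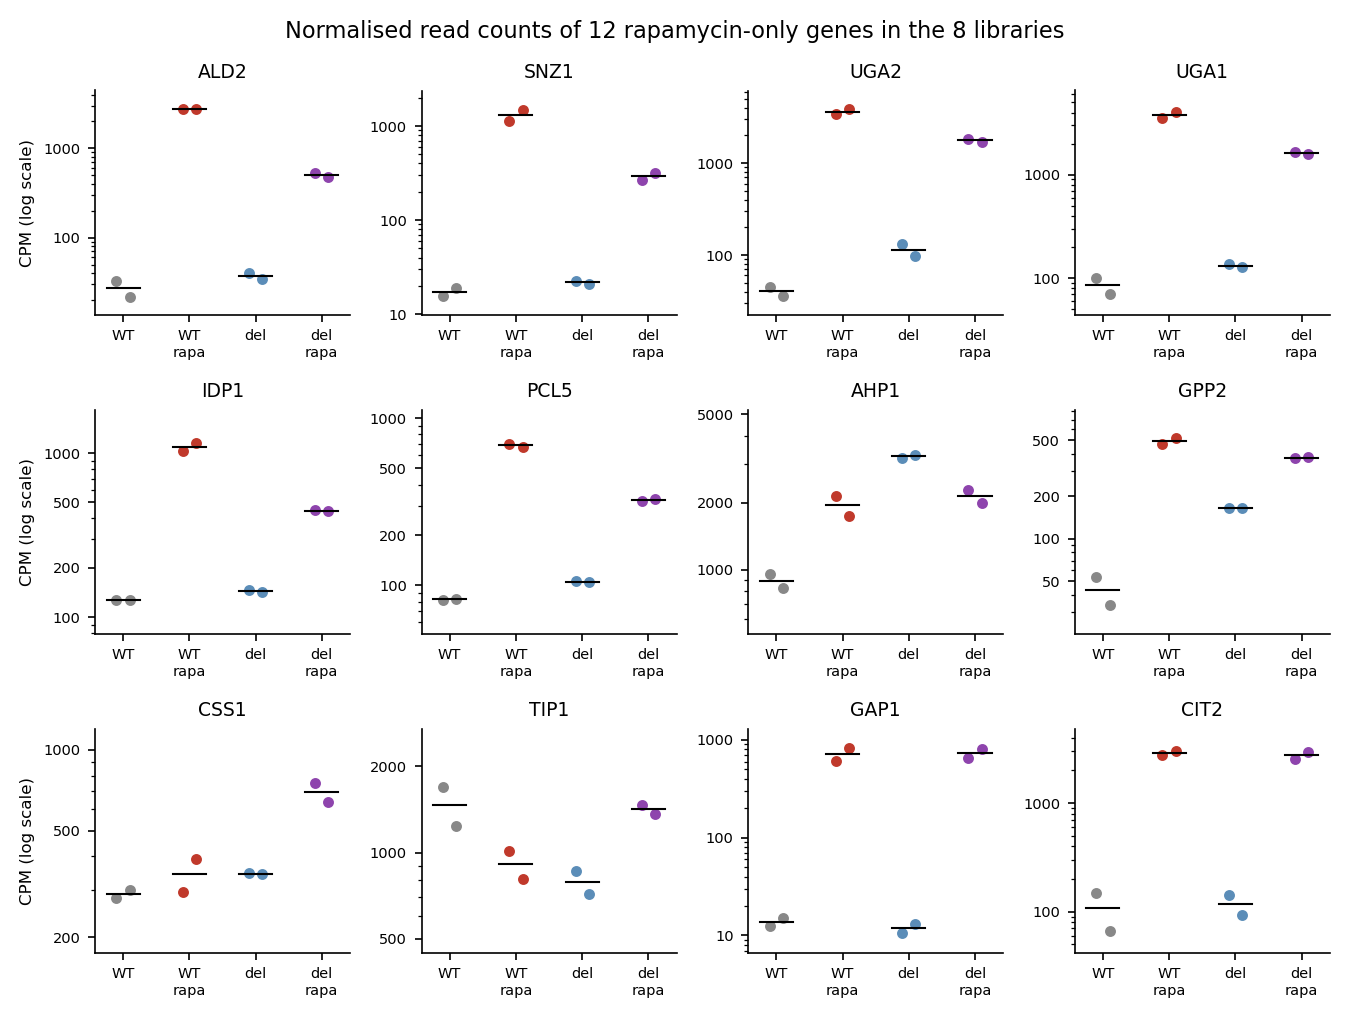
Library-scaled read counts (CPM, log axes that differ between panels) of 12 rapamycin-only genes in the 8 libraries, 1 point per library with the group mean as a bar: wild type (WT) and rph1 deletion (del), untreated and with rapamycin (rapa). In ALD2, SNZ1, UGA2 and UGA1 the deletion with rapamycin lies between the untreated groups and the wild type with rapamycin, in AHP1 and GPP2 the untreated deletion lies above the untreated wild type, and in GAP1 and CIT2 the genotypes overlap or nearly so.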

How the data were processed

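RNA-seq values were raw read counts per gene in 7036 entries, deposited by the authors. The authors' peak lists give 1 fold enrichment, a ratio of ChIP signal over background, per gene, with the gene's coordinates, per the file headers. Neither the control behind the ratio nor any pooling of replicates is given in the sources used here. Per the submitters' processing notes, tools were Trimmomatic 0.38, STAR 2.5.3a, Bowtie2 2.3.4.3, featureCounts 1.6.3, DESeq2 1.24.0 and MACS2 2.2.1, on sacCer3. The strand setting of the counting is not given there, so overlapping genes cannot be told apart.

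From these, members were taken by gene identifier, and symbols from a RefSeq table (5956 of 7036 entries matched). Counts were filtered with filterByExpr (minimum count 10), scaled by TMM and fitted with edgeR 4.0.16 in R 4.3.3 (glmQLFit, glmQLFTest) with 1 mean per group over all 8 libraries and no block. Genes called had a Benjamini-Hochberg adjusted p under 0.05. SE is the log2 fold change divided by the root of F. The fit was tested on simulated data with few genes changed, as many up as down, and the same spread for all genes. Far more genes were called with rapamycin in the real data, so the simulation does not cover that case. DESeq2 1.42.0 was an alternative.

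Members and gene lists were chosen with earlier results of these data known. Named genes are RPH1, the 10 highest and 5 lowest loci, the 8 largest called changes in each direction for rapamycin in wild type, the deletion under rapamycin and the interaction, the 5 largest in the other 2 comparisons (mean of at least 10 CPM and, except in the interaction, groups not overlapping), and up to 4 genes of each list by p-value for rapamycin in wild type. Other genes were named after their values were seen: members of a list counted, such as ACO1, IDH2, THR4 and ASN2, BDF2, and ISU1, PPQ1, GPA1 and MIX17. Files on RNA polymerase II were not used.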

Additional observations from a re-analysis of the deposited data

Results flagged for a closer look

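By the interaction test over all genes (edgeR, adjusted p under 0.05), 33 named genes changed differently with rapamycin in wild type and the rph1 deletion. The 12 that were named for the size of this difference are listed here. Interaction values are the log2 fold change in the deletion minus that in wild type. Of these 12, the smaller increases in the deletion were those of ALD2 (-2.91), UGA2 (-2.53), SNZ1 (-2.50), GPP2 (-2.32), UGA1 (-1.86), ARG3 (-1.72) and JEN1 (-1.64). AHP1 (-1.73) rose in wild type and fell in the deletion. The larger values in the deletion were those of TIP1 (1.53), HAP4 (0.92), MES1 (0.65) and MSN4 (0.63). TIP1, a cell wall mannoprotein gene, had 26420 and 26921 reads in untreated wild type, 22822 and 17024 with rapamycin, 17703 and 13054 in the untreated deletion and 32784 and 33591 in the deletion with rapamycin. It was lower by 0.68 in wild type and higher by 0.85 in the deletion, and the former call was lost without untreated wild-type replicate 1 (adjusted p = 0.0673) or rapamycin wild-type replicate 2 (0.0929).

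Several of these calls rest on single libraries. Without rapamycin deletion replicate 1 the adjusted p was 0.0641 for ARG3, 0.0631 for TIP1, 0.104 for JEN1, 0.131 for MES1 and 0.0547 for MSN4. Without rapamycin deletion replicate 2 it was 0.0819 for HAP4, 0.0843 for JEN1, 0.113 for MES1 and 0.117 for MSN4. Without untreated deletion replicate 1 and then replicate 2 it was 0.113 and 0.0678 for HAP4, 0.0776 and 0.0621 for JEN1, 0.153 and 0.104 for MES1, and 0.135 and 0.107 for MSN4. Without rapamycin wild-type replicate 1 it was 0.0582 for HAP4, 0.0688 for JEN1, 0.101 for MES1 and 0.112 for MSN4. Without rapamycin wild-type replicate 2 it was 0.109 for HAP4, 0.0723 for JEN1 and 0.0860 for MSN4. Without untreated wild-type replicate 2 it was 0.0604 for HAP4, 0.0983 for MES1 and 0.0765 for MSN4, and without replicate 1 it was 0.0542 for MSN4. The causes were not tested.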

How the results depend on the processing

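Over the named genes other than RPH1, 286 called log2 fold changes were recomputed, 198 kept their call under every setting tried and 0 changed direction. All 286 were called in the main fit and many genes were named for large changes, so a reversal was unlikely from the start. By comparison 88 of 96 kept it for rapamycin in wild type, 69 of 87 for rapamycin in the deletion, 3 of 21 for the untreated deletion, 26 of 49 for the deletion with rapamycin and 12 of 33 for the interaction. The median fold enrichment of 22.5 over 395 loci was 22.5 over 429 genes and 22.2 over the 385 loci without a gene of the untreated list. Other scalings moved the median of all genes by at most 0.06 on the log2 scale. All the scalings used take most genes as unchanged, so a shift common to all genes could not show. The changes given are therefore relative to the other genes.

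Leaving out 1 library at a time gave 239 to 252 higher and 40 to 54 lower genes with rapamycin in wild type, 169 to 197 and 32 to 58 in the deletion, 5 to 29 and 4 to 29 in the untreated deletion, 3 to 20 and 75 to 165 in the deletion with rapamycin, and 1 to 7 and 16 to 93 in the interaction. Counting only changes of more than 2-fold gave 166 and 14, 125 and 9, 9 and 6, 3 and 36, and 1 and 34, by construction fewer. DESeq2's test gave, for the untreated deletion, 39 higher and 49 lower genes, 23 higher in the deletion with rapamycin and 13 higher in the interaction. Only the groups compared gave 2 and 2 in the untreated deletion and 23 higher in the deletion with rapamycin. TMM without the ribosomal lists gave 7 higher in the interaction. Among members sharing no value with a neighbour, an alternative chosen after seeing the data, 12 were higher in the untreated deletion, over fewer genes. Apart from this construction, the cause was not tested.

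With the replicate number as a block, the untreated deletion had 44 genes higher and 61 lower, the deletion with rapamycin 28 higher, and the interaction 19 higher and 130 lower. Replicates 1 and 2 deviated together between groups with r of 0.188 to 0.556 over 6169 genes, but 2 numbers do not show a pairing, and the labels give none. A planned search of promoter motifs was not run, since no promoter sequence was used here. Leaving out a library left 1 in its group, and calls over all genes mostly became fewer in those fits too. With 2 libraries per group, small changes are not detectable.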
